A study of Mus musculus with 8 samples.

Results

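The proteasome genes of CD4+ T cells were compared between 2 T cell receptor (TCR) clones, called ANT and SAS. Members were chosen by name: every protein-coding gene of the count table whose symbol starts with Psma, Psmb, Psmc, Psmd, Psme, Psmf or Psmg, which gave 50 of 39056 genes. Of these, 5 are the immune subunits Psmb8, Psmb9, Psmb10, Psme1 and Psme2, and 45 are the others. The low-count filter of the test kept 48 members and left out Psma8 and Psmb11. Psmc3ip carries the prefix but encodes a recombination factor that is no part of the proteasome, and Psme2b is annotated as a retrogene, an inserted copy of the Psme2 messenger.

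CD4+ T cells had been sorted from spleen and lymph nodes, combined, of recipient mice of the strain C57BL/6J. Both groups came from bone marrow of the genotype CD4-Cre TCRβtg Tcra-/-, which carries a TCR beta transgene and lacks the endogenous TCR alpha gene, and was transduced with a retrovirus before transfer. The groups differ in the TCR alpha chain that this retrovirus supplied, ANT or SAS. Each clone had 4 libraries, numbered 1, 3, 4 and 5 for ANT and 1, 2, 3 and 6 for SAS, each of polyadenylated RNA prepared with a strand-specific kit. The labels give no age. They do not say whether each library came from its own recipient, and the p-values then reflect only how far these libraries scatter, which may be technical. In sorted bulk cells, fewer cells with a transcript and less transcript per cell cannot be told apart.

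The proteasome degrades proteins marked with ubiquitin. Its 20S core is a barrel of outer alpha rings and inner beta rings, and the beta subunits encoded by Psmb5, Psmb6 and Psmb7 cut the substrate. Interferon induces alternative catalytic subunits, encoded by Psmb8, Psmb9 and Psmb10, which replace Psmb5, Psmb6 and Psmb7 respectively in newly made barrels, the immunoproteasome. This form prevails in lymphocytes and favours cuts that yield peptides for MHC class I. The 19S particle, with ATPases from the Psmc genes and other subunits from the Psmd genes, recognises and unfolds the substrate. The PA28 activator, made of the Psme1 and Psme2 products, can sit on the barrel in its place.

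Library totals ran from 27600959 to 31810799 counts. Trav9-4, a TCR alpha variable segment, averaged 28.4 counts per 1e6 of the scaled library size (CPM) among SAS libraries and 0.296 CPM among ANT libraries. Cd4 itself stood at 936 ± 59.8 CPM in the ANT libraries and 907 ± 66.6 CPM in the SAS libraries (SD, n = 4). Summed over 10 CD4+ T cell genes, levels ran from 7746 to 10420 CPM in the ANT libraries and from 7786 to 10260 CPM in the SAS libraries. Single genes of these 10 differed, with log2 fold changes (SAS minus ANT) from −0.65 to 1.67. In the test described below, 2 were higher in SAS (19.8% of all genes) and 2 higher in ANT (17.7% of all genes). The 7 B cell genes summed to 1.41 to 3.24 CPM in the ANT libraries and 1.41 to 3.44 CPM in the SAS libraries, the 10 dendritic cell and macrophage genes to 9.83 to 26.8 and 17.4 to 59.3 CPM, the 5 granulocyte genes to at most 1.07 and 1.79 CPM, and the 5 erythroid genes to at most 11.8 and 5.54 CPM. The 2 CD8 genes summed to 14.1 to 66.8 CPM in the ANT libraries and 1.99 to 4.49 CPM in the SAS libraries. Most of the ANT sum was Cd8b1, which was lower in SAS (log2 fold change, SAS minus ANT, −3.80). Cd8a was at 2.56 ± 1.91 CPM in the ANT libraries and 0.916 ± 0.531 CPM in the SAS libraries (−1.49, edgeR adjusted p 0.0919). The 5 natural killer genes summed to 31.5 to 40.1 CPM in the ANT libraries and 3.15 to 5.64 CPM in the SAS libraries. Most of the natural killer sum was Prf1. The 2 natural killer genes tested, Prf1 and Klrb1c, went opposite ways, with log2 fold changes (SAS minus ANT) of −3.28 and 4.33. Ncr1, Klra8 and Klre1 had no count in any library, as had the dendritic cell gene Xcr1. The 5 stromal genes summed to 228 to 327 and 241 to 280 CPM, nearly all of it Pecam1, which T cells also express. The part of other cell types in the results below was not tested. In a principal component analysis of all tested genes, the second component (10.6% of the variance) set ANT replicates 1 and 3 (25.0 and 26.6) and SAS replicate 1 (23.6) apart from ANT replicates 4 and 5 (−25.1 and −31.3) and SAS replicate 2 (−25.0), and many proteasome genes followed this line, as described further on.

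Psmb9 and Psmb10 were lower in SAS, and Psme2b was lower by the largest factor of any member. Psme3, the nuclear activator, was higher in SAS. Of the core and 19S genes, 9 of 14 and 14 of 17 had a log2 fold change above 0, and most did not pass the test. Of 48 members tested, 9 (18.8%) were called at an adjusted p under 0.05 by edgeR's quasi-likelihood test, where 37.4% of all 12619 genes tested were called. Higher in SAS were 6 members, against 19.8% of all genes, and higher in ANT were 3, against 17.7% of all genes. The libraries of the clones did not overlap for 10 members, 6 higher in SAS (20.5% of all genes) and 4 higher in ANT (17.7% of all genes), or 38.1% of all genes in either direction. Without SAS replicate 2, 15 members were higher in SAS without overlap, as were 22.7% of all genes. The median log2 fold change (SAS minus ANT) was 0.11 over the members and 0.00 (−0.0032) over all genes tested. Among the 5 immune subunits the median was −0.15, with 2 higher in ANT and 0 higher in SAS. Neither an unadjusted p under 0.05 nor DESeq2 nor limma-voom put any of the 5 higher in SAS. Among the 43 other members tested it was 0.19, with 6 higher in SAS and 1, Psme2b, higher in ANT. Scaling by library size alone gave a split of 13 members higher in SAS to 3 higher in ANT, in place of 6 to 3, with 24.3% of all genes called toward SAS and 13.2% toward ANT. The 6 calls in SAS fell to 2 without SAS replicate 1 and to 2 without SAS replicate 6, and rose to 12 without ANT replicates 1 and 3, where 17.9%, 17.5% and 19.3% of all genes were called higher in SAS. The 3 calls in ANT stood in each of these fits.

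**Figure D1:**
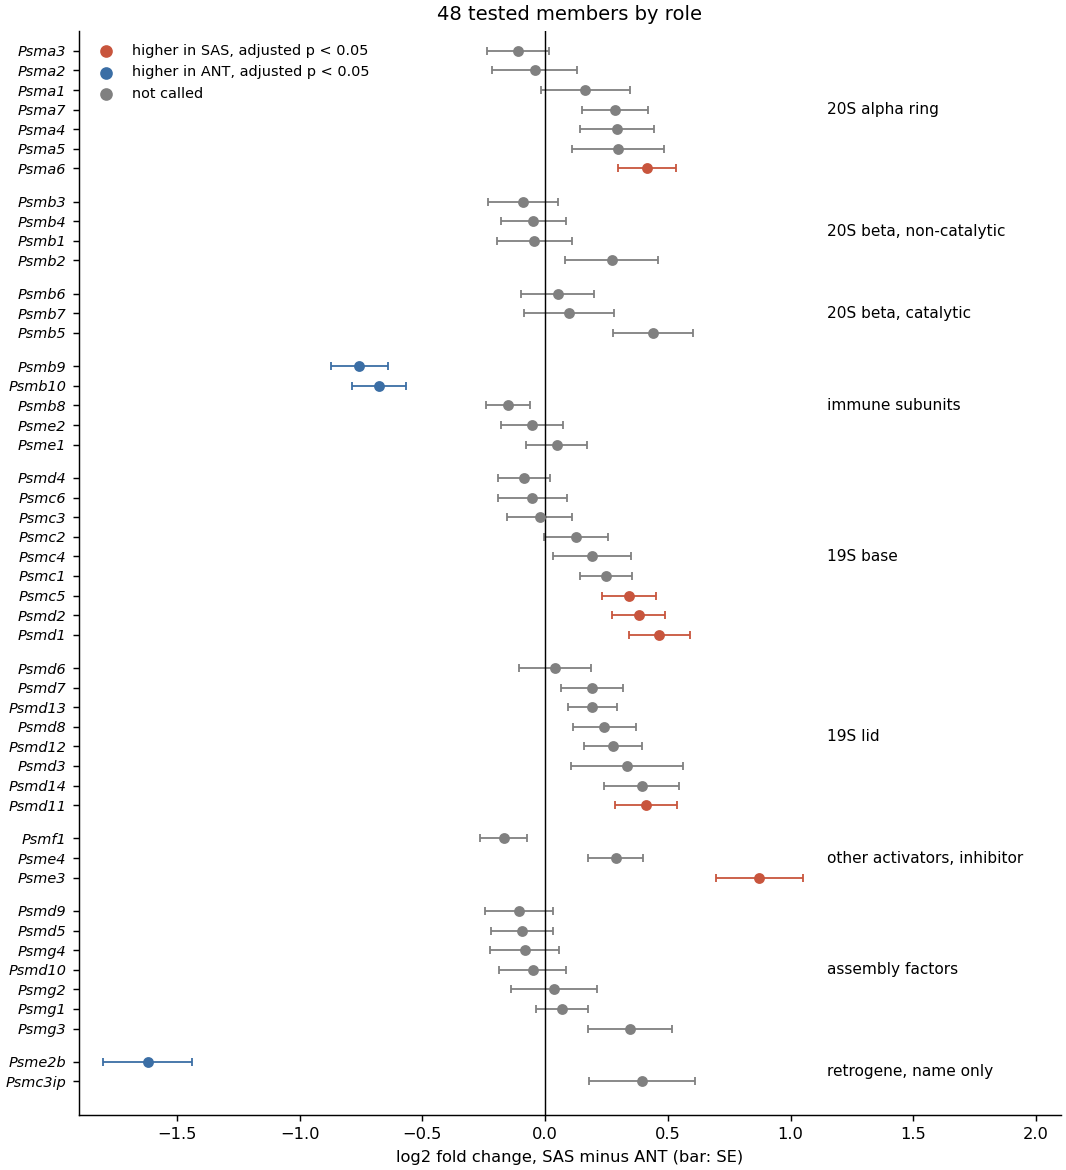
Log2 fold change (SAS minus ANT) of the 48 tested members, grouped by role, with bars of 1 standard error; red members were called higher in SAS, blue ones higher in ANT and grey ones were not called. Psmb9, Psmb10 and Psme2b lie to the left, Psme3 lies farthest to the right, and most core and 19S genes lie between 0 and 0.5.

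The sequences before the start sites of the immune subunits are shown because these genes are the known interferon-responsive part of the family. Each window is from RefSeq (GRCm38.p6) and runs from 250 bases before to 50 bases after the start site, 5′ to 3′ on the gene's strand. Capitals mark a match, on either strand, to any of 4 motifs: the interferon-stimulated response element (GAAA, any 2 bases, GAAA), the interferon gamma activated site (TTCNNNGAA), the CCAAT box (CCAAT) and the antioxidant response element (TGACNNNGC). The windows are chr17:34187281-34187580 (minus strand) for Psmb9, chr8:105938343-105938642 (minus strand) for Psmb10, chr17:34197945-34198244 (plus strand) for Psmb8 and chr14:55578244-55578543 (plus strand) for Psme1.
Psmb9: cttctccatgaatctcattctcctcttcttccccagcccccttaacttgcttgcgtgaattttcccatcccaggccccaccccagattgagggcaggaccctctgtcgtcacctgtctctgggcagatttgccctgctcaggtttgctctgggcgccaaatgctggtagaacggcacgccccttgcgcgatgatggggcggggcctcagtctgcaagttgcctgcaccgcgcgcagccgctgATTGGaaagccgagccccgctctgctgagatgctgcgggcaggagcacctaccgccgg
Psmb10: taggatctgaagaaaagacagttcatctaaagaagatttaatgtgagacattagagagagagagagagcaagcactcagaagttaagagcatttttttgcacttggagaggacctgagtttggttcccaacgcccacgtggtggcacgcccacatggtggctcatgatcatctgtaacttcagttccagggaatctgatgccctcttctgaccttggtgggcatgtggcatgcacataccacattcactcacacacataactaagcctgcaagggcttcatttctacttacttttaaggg
Psmb8: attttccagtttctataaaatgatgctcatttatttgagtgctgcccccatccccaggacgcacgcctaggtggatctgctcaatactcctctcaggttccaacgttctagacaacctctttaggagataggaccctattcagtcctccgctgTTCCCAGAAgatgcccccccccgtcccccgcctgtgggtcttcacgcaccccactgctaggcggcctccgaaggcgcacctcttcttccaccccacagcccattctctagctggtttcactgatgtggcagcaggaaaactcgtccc
Psme1: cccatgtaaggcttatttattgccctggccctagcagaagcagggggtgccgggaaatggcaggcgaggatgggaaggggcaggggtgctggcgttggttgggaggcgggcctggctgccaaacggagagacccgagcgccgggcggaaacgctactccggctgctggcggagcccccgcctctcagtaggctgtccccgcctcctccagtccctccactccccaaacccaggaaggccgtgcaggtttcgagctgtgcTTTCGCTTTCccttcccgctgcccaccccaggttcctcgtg

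Psmb9 held a CCAAT box, read on the other strand, 8 bases before the start site, and none of the other motifs. Its window shared 275 of 300 bases with that of Tap1, which encodes a chain of the peptide transporter for MHC class I, lies on the opposite strand and starts 226 bases away. Psmb10 held none of the 4 motifs in this window. Psmb8 held a gamma activated site 97 bases before the start site. Psme1 held a response element 10 bases after the start site. No window of Psme2 held any of the 4 motifs. For Psmb8, Psmb9 and Psme1 the GENCODE gene begins upstream of the window, so that sequence before those earlier starts was not searched. Of the 50 members, 42 had a window. The response element was in 5 of these 42 genes (Psmb3, Psmd4, Psmd9, Psme1 and Psmg4) and in 3.99% of all 27018 genes with a window. The gamma activated site was in 3 (Psmb8, Psmd2 and Psmg1; 9.55% of all genes), the CCAAT box in 15 (41.1% of all genes) and the antioxidant element in 6 (13.99% of all genes: Psmb5, Psmb6, Psmc6, Psmd9, Psmd12 and Psme4 among the members). A match describes these letters only.

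Psmb9 (chromosome 17, 34181987 to 34187764, minus strand, mm10) encodes the catalytic subunit that replaces that of Psmb6. It was at 148, 161, 146 and 130 CPM in ANT (replicates 1, 3, 4, 5 in this order) against 98.3, 72.6, 85.0 and 90.4 CPM in the SAS libraries (replicates 1, 2, 3, 6). Every ANT library lay above every SAS library. The level was 1.69-fold higher in ANT (log2 fold change −0.76, SE 0.12, edgeR adjusted p 0.000543), and it was called in all 18 alternatives. The annotation of Psmb9 overlaps Tap1 on the opposite strand, and the strand setting of the counting is not known.

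Psmb10 (chromosome 8, 105935735 to 105938444, minus strand) encodes the subunit that replaces that of Psmb7. Its levels were 132, 127, 133 and 105 CPM in the ANT libraries and 85.3, 69.0, 74.8 and 81.4 CPM in the SAS libraries, in the same order of replicates. The clones did not overlap here either. The level was 1.60-fold higher in ANT (log2 fold change −0.68, SE 0.11, edgeR adjusted p 0.000845), again in all 18 alternatives.

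Psmb8 (chromosome 17, 34197721 to 34201454, plus strand), whose product replaces that of Psmb5, was the most abundant catalytic subunit. It was at 329, 329, 319 and 281 CPM in the ANT libraries and 292, 273, 285 and 283 CPM in the SAS libraries. ANT replicate 5 lay among the SAS libraries, and the other ANT libraries lay above them. The test was not passed (log2 fold change −0.15, SE 0.09, edgeR adjusted p 0.221), and none of the 18 alternatives called it (adjusted p 0.0531 to 0.689).

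Psme1 and Psme2 lie near each other on chromosome 14 and encode the chains of PA28. Psme1 was at 322, 324, 287 and 238 CPM in the ANT libraries and 322, 267, 330 and 291 CPM in the SAS libraries (log2 fold change 0.05, SE 0.12, edgeR adjusted p 0.795). Psme2 was at 261, 253, 228 and 196 CPM in the ANT libraries and 259, 189, 224 and 231 CPM in the SAS libraries (log2 fold change −0.05, SE 0.13, edgeR adjusted p 0.775). For both genes the clones overlapped over most of their range. Per kilobase of the principal transcript, Psme1, Psme2 and Psmb8 were the 3 most abundant of the 48 members in both clones, at 263, 243 and 193 CPM per kilobase in ANT and 272, 235 and 174 CPM per kilobase in SAS. On the same scale Psmb9 ranked 6 in ANT (108 CPM per kilobase) and 23 in SAS (64.0 CPM per kilobase), and Psmb10 ranked 9 (94.7) and 25 (59.2).

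**Figure D2:**
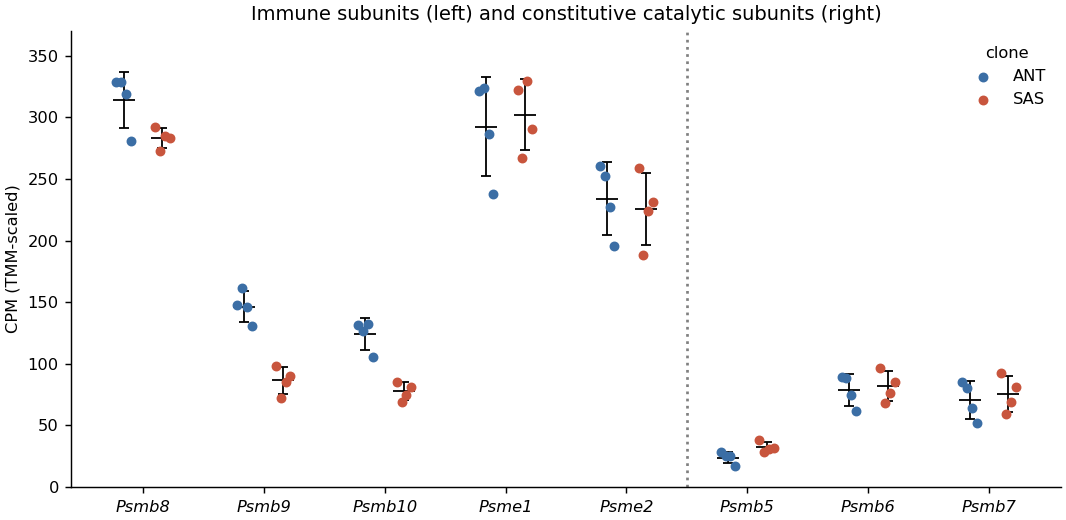
Level (CPM) of the 5 immune subunits and, right of the dotted line, the 3 constitutive catalytic subunits in each library; points are libraries, bars the mean ± SD of 4. The clones separate for Psmb9 and Psmb10, and overlap for Psmb8, Psme1, Psme2, Psmb6 and Psmb7.

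The constitutive catalytic subunits did not pass the test in either direction. Psmb5 was at 28.3, 25.4, 24.7 and 17.2 CPM in the ANT libraries and 38.4, 28.3, 30.96 and 31.96 CPM in the SAS libraries. The highest ANT library and the lowest SAS library were almost level. Its log2 fold change was 0.44 (SE 0.16, edgeR adjusted p 0.0549), 1 of the 3 was under an unadjusted p of 0.05, and DESeq2 and limma-voom each called it (adjusted p 0.0450 and 0.0495). Over the 18 alternatives its adjusted p ran from 0.0199 to 0.176, and 7 called it, among them the fit without ANT replicate 1 (0.0383). Psmb6 ran from 61.8 to 89.6 CPM in the ANT libraries and from 68.2 to 96.8 CPM in the SAS libraries (log2 fold change 0.05, SE 0.15, edgeR adjusted p 0.812). Psmb7 ran from 51.9 to 85.6 CPM in the ANT libraries and from 59.2 to 92.9 CPM in the SAS libraries (log2 fold change 0.10, SE 0.18, edgeR adjusted p 0.711).

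The Psmb5 count is uncertain. The processed pseudogene Gm3375 matched 98.9% of 796 aligned bases of the Psmb5 transcript, with 8 substitutions and a longest identical stretch of 194 bases. It averaged 353.0 counts per library beside 832.1 for Psmb5. Gm3375 itself was at 10.7 ± 1.79 CPM in the ANT libraries and 13.3 ± 1.86 CPM in the SAS libraries (log2 fold change 0.31, edgeR adjusted p 0.152).

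Within each library, the balance of immune to constitutive subunit was lower in SAS for the 3 pairs. As a ratio of counts per kilobase, Psmb9 to Psmb6 was 0.975, 1.07, 1.152 and 1.25 in ANT and 0.600, 0.628, 0.656 and 0.628 in SAS. The ratio of Psmb10 to Psmb7 was 1.36, 1.39, 1.82 and 1.80 in ANT and 0.812, 1.03, 0.963 and 0.888 in SAS. That of Psmb8 to Psmb5 was 6.41, 7.15, 7.12 and 9.04 in ANT and 4.20, 5.32, 5.08 and 4.89 in SAS. In none of the 3 pairs did a SAS library reach an ANT library. The mean ratio in SAS was 0.565, 0.580 and 0.656 of that in ANT, in the same order, and 0.676 for Psmb8 with the counts of Gm3375 added to Psmb5. The ratios in a clone depend on the length used. Per kilobase of all annotated exons, the ANT means were 0.963, 3.61 and 3.58 in place of 1.11, 1.59 and 7.43. The share of SAS in ANT did not depend on length. These ratios are descriptions, and whether immune and constitutive subunits changed by different amounts was not tested.

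**Figure D3:**
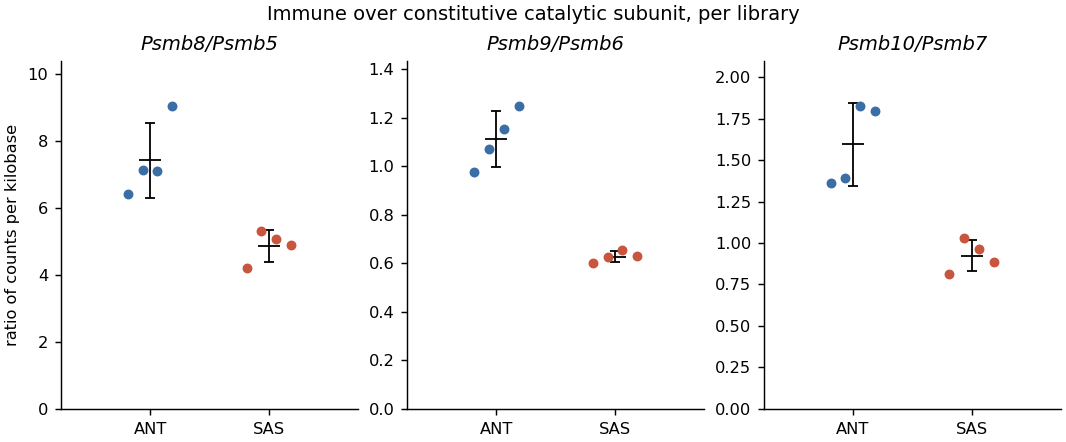
Ratio of each immune catalytic subunit to its constitutive counterpart in counts per kilobase of principal transcript, with 1 point per library and the mean ± SD of 4. For each of the 3 pairs every SAS library lies below every ANT library.

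Psma8 and Psmb11 encode the testis and thymic core subunits and were close to absent. Psmb11 had 2 counts in the ANT libraries together and 1 in SAS. Psma8 had 5, 3, 0 and 1 counts in ANT and 33, 6, 5 and 0 in SAS, so that most SAS counts came from replicate 1. Neither was tested in the main analysis.

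Psme3 (chromosome 11, 101316213 to 101323537, plus strand) encodes PA28 gamma, a nuclear activator of the 20S core. It was at 81.5, 81.2, 132 and 134 CPM in the ANT libraries and 186, 198, 209 and 191 CPM in the SAS libraries. All SAS libraries lay above all ANT libraries, and the ANT libraries fell into pairs of replicates 1 and 3 and of replicates 4 and 5. The level was 1.83-fold higher in SAS (log2 fold change 0.87, SE 0.18, edgeR adjusted p 0.00322). It was called in all 18 alternatives, with a log2 fold change of 1.25 without ANT replicates 4 and 5 and of 0.56 without ANT replicates 1 and 3. Psme4, which encodes the activator PA200, was at 92.2, 89.3, 103 and 117 CPM in the ANT libraries and 110, 130.5, 128 and 122 CPM in the SAS libraries. Only the lowest SAS library overlapped with ANT, below replicate 5. Its log2 fold change of 0.29 (SE 0.11) did not pass the test (edgeR adjusted p 0.0674), but did without ANT replicate 5 (0.0236, and 0.00938 to 0.309 over the 18 alternatives).

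Psmf1 encodes the inhibitor PI31. It was at 41.7, 44.5, 38.1 and 37.7 CPM in the ANT libraries and 36.5, 33.4, 37.0 and 37.1 CPM in the SAS libraries. The clones did not overlap, but the gap was narrow and the test was not passed (log2 fold change −0.17, SE 0.10, edgeR adjusted p 0.195). It was called in 1 of 18 alternatives, without ANT replicates 4 and 5 (adjusted p 0.0454, with 0.608 the highest of the 18).

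Psme2b (chromosome 11, 48945354 to 48946190, minus strand) showed the largest difference of any member. It was at 27.5, 28.8, 24.3 and 36.0 CPM in the ANT libraries and 8.77, 9.96, 12.1 and 7.20 CPM in the SAS libraries, a 3.07-fold higher level in ANT (log2 fold change −1.62, SE 0.18, edgeR adjusted p 6.81e-05, called in all 18 alternatives). Its parent gene Psme2 was not called. The annotated retrogene has a single exon and lies within the span of Gm12185 and across an exon of 9930111J21Rik1, both on the same strand. Gm12185 was at 28.2 ± 2.65 CPM in the ANT libraries and 6.83 ± 1.21 CPM in the SAS libraries (log2 fold change −2.04, edgeR adjusted p 4.13e-06), and 9930111J21Rik1 at 67.7 ± 12.7 and 21.3 ± 5.25 CPM (log2 fold change −1.67, edgeR adjusted p 9.8e-05). These 2 genes were picked out for their position, after their values were seen. Whether Psme2b reads come from transcripts of the overlapping genes cannot be told from gene counts.

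The retrogene and its parent share most of their sequence, which limits how reads can be assigned. Over 794 aligned bases the transcripts were 99.4% identical, with 5 substitutions, all in the coding part of Psme2, and a longest identical stretch of 341 bases. Counted from the first base of the Psme2 coding sequence, with the Psme2 base first, 3 of them were C489T, C519T and C543T. The stretch from 489 to 549, which holds these 3, is printed for both copies to show where they differ most. Differing bases are in capitals (GENCODE M21 transcripts, mm10).
Psme2 489 to 549: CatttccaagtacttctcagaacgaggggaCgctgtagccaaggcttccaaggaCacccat
Psme2b 489 to 549: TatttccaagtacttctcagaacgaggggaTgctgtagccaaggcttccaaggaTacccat

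**Figure D4:**
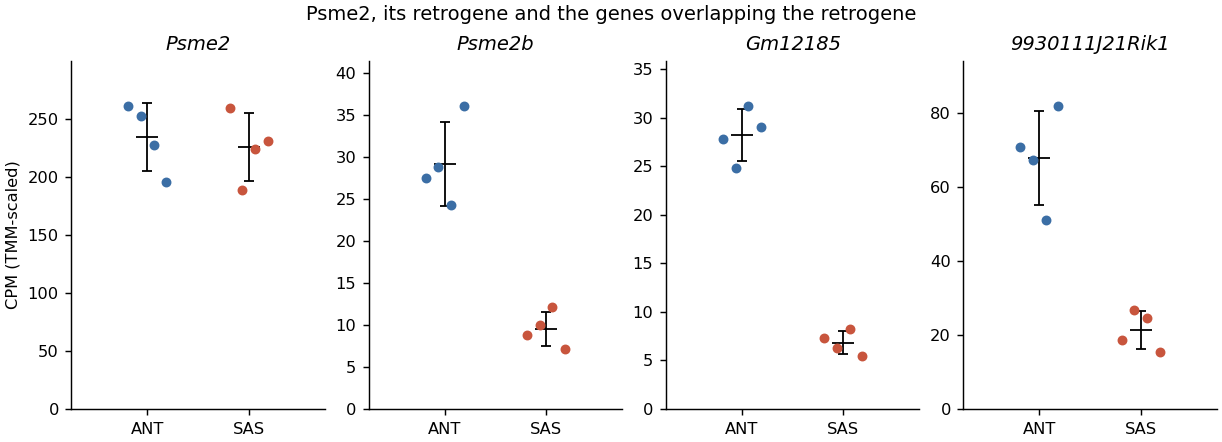
Level (CPM) of Psme2, its retrogene Psme2b and the genes Gm12185 and 9930111J21Rik1 that overlap the retrogene, with 1 point per library and the mean ± SD of 4. Psme2 overlaps between the clones, and the other genes are lower in every SAS library than in any ANT library.

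The alpha ring and the other beta subunits form the frame of the core. Of 7 alpha subunits tested, 1 was called higher in SAS, beside 19.8% of all genes: Psma6. It was at 80.4, 78.9, 79.6 and 61.2 CPM in the ANT libraries and 110.3, 88.5, 98.6 and 102 CPM in the SAS libraries, without overlap (log2 fold change 0.41, SE 0.12, edgeR adjusted p 0.0188). That call was lost without SAS replicate 1 (adjusted p 0.0537) and without SAS replicate 6 (0.051), and 0.0056 was the lowest of the 18 alternatives. The alpha genes ran from −0.11 (Psma3) to 0.41 in log2 fold change. Of the 4 structural beta genes Psmb1 to Psmb4, 0 were called, beside 37.4% of all genes in either direction. In edgeR 0 were under an unadjusted p of 0.05, and DESeq2 and limma-voom called 0. Their log2 fold changes ran from −0.09 to 0.27.

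Of the 17 genes of the 19S particle, 4 (23.5%) were called higher in SAS, near the 19.8% of all genes. Of 6 ATPases of the base, 1 was called: Psmc5, at 72.2, 67.3, 73.0 and 60.8 CPM in the ANT libraries and 94.6, 73.7, 85.5 and 92.2 CPM in the SAS libraries. The lowest SAS library lay just above the highest ANT library (log2 fold change 0.34, SE 0.11, edgeR adjusted p 0.0332), and the call was made in 9 of 18 alternatives (adjusted p 0.0104 to 0.0945). Among the non-ATPase base genes, Psmd1, the large scaffold, was at 91.9, 84.0, 75.1 and 66.7 CPM in the ANT libraries and 125, 96.2, 109.5 and 107 CPM in the SAS libraries (log2 fold change 0.46, SE 0.12, edgeR adjusted p 0.0144). Psmd2, the other scaffold, was at 216, 207.5, 188 and 186 CPM in the ANT libraries and 296, 234, 236 and 271 CPM in the SAS libraries (log2 fold change 0.38, SE 0.11, edgeR adjusted p 0.0191). Both were higher in every SAS library than in any ANT library. The annotation of Psmd1 overlaps an exon of Gm21972 on the same strand, and how reads there were counted is not known. The same holds for Psmb5 (Mir686) and Psmg3 (Gm26938). Psmd4, a ubiquitin receptor, was not called (log2 fold change −0.09). Of the 8 lid genes, all with a log2 fold change above 0 (0.04 to 0.41), 1 was called. This was Psmd11, whose product helps to assemble the particle, at 66.5, 61.2, 86.0 and 79.9 CPM in the ANT libraries and 104, 89.4, 92.0 and 105 CPM in the SAS libraries (log2 fold change 0.41, SE 0.13, edgeR adjusted p 0.0266). Psmd14, the deubiquitinase of the lid, averaged 82.0 CPM in the ANT libraries and 108 CPM in the SAS libraries and was not called (log2 fold change 0.39, edgeR adjusted p 0.0696).

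Several of these calls rest on few libraries. Psmd1 kept its call in 17 of 18 alternatives and lost it without ANT replicates 4 and 5 (adjusted p 0.0714, with 0.00361 the lowest of the 18). Psmd2 was called in 11 of 18 (0.00501 to 0.097) and lost its call without ANT replicate 4, ANT replicate 5, SAS replicate 1 or SAS replicate 6 (0.0586, 0.0535, 0.0548 and 0.0569). Psmd11 was called in 12 of 18 (4.95e-05 to 0.134) and lost its call without ANT replicate 1, ANT replicate 3, SAS replicate 1 or SAS replicate 6 (0.0658, 0.0697, 0.066 and 0.0771). Psmc5 lost its call without ANT replicate 3, 4 or 5 and without SAS replicate 1, 3 or 6 (0.0807, 0.0515, 0.0908, 0.089, 0.0661 and 0.0945).

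Assembly factors showed no called difference. Of 7 such members (Psmg1 to Psmg4, Psmd5, Psmd9 and Psmd10), 0 were called, beside 37.4% of all genes in either direction. In edgeR 0 were under an unadjusted p of 0.05, and DESeq2 and limma-voom called 0. Their log2 fold changes ran from −0.11 to 0.35. Psmg3, a chaperone of the alpha ring, was at 6.14, 7.42, 5.70 and 5.31 CPM in the ANT libraries and 8.68, 6.70, 6.76 and 9.06 CPM in the SAS libraries (log2 fold change 0.35, SE 0.17, edgeR adjusted p 0.137). Its partner Psmg4 was at 11.5 ± 1.55 and 10.8 ± 1.08 CPM (log2 fold change −0.08, edgeR adjusted p 0.677), and the unrelated Psmc3ip at 2.72 ± 0.493 and 3.57 ± 0.695 CPM (log2 fold change 0.39, edgeR adjusted p 0.181).

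The core genes moved together from library to library, also within a clone. Summed over the 14 core genes without the immune, testis and thymic ones, the level was 1475, 1405, 1167 and 992 CPM in the ANT libraries, against 1593, 1116, 1329 and 1399 CPM in the SAS libraries, in the order of replicates given above. In each clone the library with the lowest value on the second principal component (ANT replicate 5, SAS replicate 2) had the lowest sum, and in ANT replicates 1 and 3, both at the other end, had the higher sums. ANT replicates 1 and 3 both lay above replicates 4 and 5 for 13 of these 14 genes, against 38.0% of all genes tested, and SAS replicate 1 was the highest and SAS replicate 2 the lowest SAS library for 14 of 14, against 29.9% and 29.9% of all genes. The same ordering of ANT held for 36 of the 48 members (38.0% of all genes), and the opposite one for 4 (35.9% of all genes).

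Summed over its 17 genes, the 19S particle was at 1710, 1611, 1536 and 1406 CPM in the ANT libraries and 2035, 1604, 1764 and 1888 CPM in the SAS libraries. The 3 immune catalytic genes summed to 609, 617, 597 and 517 CPM in the ANT libraries and 476, 414, 444 and 455 CPM in the SAS libraries, without overlap between the clones. Members at large held 0.423% ± 0.0423 of all unscaled counts in ANT and 0.484% ± 0.0489 in SAS (SD, n = 4). On that scale, by library size only, the median log2 fold change of all genes was 0.0943. In scaled CPM the members summed to 4377 ± 438 in ANT and 4682 ± 458 in SAS. The clones overlapped on both measures. Psmd3, a lid gene, went against the ordering, at 56.0, 58.9, 107 and 96.1 CPM in the ANT libraries and 75.7, 109, 121 and 94.8 CPM in the SAS libraries, and was picked out after its values were seen (log2 fold change 0.33, edgeR adjusted p 0.28).

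**Figure D5:**
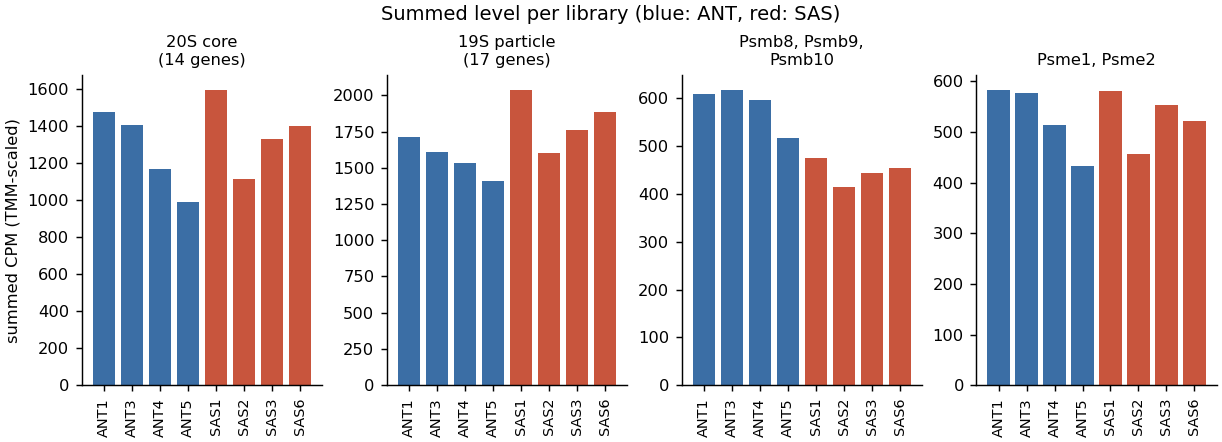
Summed level (CPM) of core genes, 19S genes, the immune catalytic genes and the PA28 genes in each library, blue for ANT and red for SAS. The core sum runs from 992 to 1475 CPM among ANT libraries and from 1116 to 1593 CPM among SAS libraries, so that the clones overlap, and the immune catalytic sum is lower in every SAS library than in any ANT library.

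The other genes of the pathway were taken from 6 lists holding 80 matched genes, and each list's counts are to be read beside the 19.8% of all genes called higher in SAS and the 17.7% in ANT. Of 15 tested factors that work with the proteasome without carrying its name, edgeR called 2 (13.3%, with 19.8% of all genes) higher in SAS and 0 in ANT (2 of the latter at an unadjusted p under 0.05, 1 with DESeq2 and 0 with limma-voom). The 2 were Ubqln4, a shuttle for ubiquitinated proteins, at 68.2 ± 16.3 CPM in the ANT libraries and 119 ± 7.03 CPM in the SAS libraries (log2 fold change 0.80, edgeR adjusted p 0.00261), and Txnl1, a thioredoxin-like protein of the 19S particle (0.40, adjusted p 0.00716). The maturation factor Pomp was not called, at 77.0, 73.5, 57.1 and 50.5 CPM in the ANT libraries and 90.8, 61.2, 74.3 and 81.0 CPM in the SAS libraries (log2 fold change 0.25, edgeR adjusted p 0.257). It followed the ordering of the core genes.

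Of 7 genes for the response that restores proteasome levels, 2 passed the test as higher in ANT and 0 as higher in SAS (1 at an unadjusted p under 0.05, and 0 with DESeq2 or limma-voom). Nfe2l1, the factor that drives the response, was at 69.7, 65.3, 102 and 111 CPM in the ANT libraries and 100.4, 127, 130 and 111 CPM in the SAS libraries, and was not called (log2 fold change 0.43, edgeR adjusted p 0.0882). It was called without ANT replicate 5 (adjusted p 0.0267, with 2.73e-07 to 0.438 over the 18 alternatives). Ngly1, the enzyme that activates its product, was at 99.2 ± 31.3 CPM in the ANT libraries and 54.8 ± 3.98 CPM in the SAS libraries (log2 fold change −0.85, edgeR adjusted p 0.00703), and −0.40 without ANT replicates 1 and 3. The related factor Nfe2l2 was at 123 ± 35.1 and 51.0 ± 5.04 CPM (log2 fold change −1.27, edgeR adjusted p 0.00047). Of 10 genes of ubiquitin supply and the p97 segregase, 2 were higher in SAS: Vcp, which encodes p97 (247 ± 11.1 CPM in the ANT libraries, 371 ± 11.8 CPM in the SAS libraries, log2 fold change 0.59, edgeR adjusted p 0.000419), and Uba1, the ubiquitin-activating enzyme (log2 fold change 0.49, adjusted p 0.00161). Rps27a, a fusion of ubiquitin and a ribosomal protein, was the 1 called higher in ANT (log2 fold change −0.61, edgeR adjusted p 0.0224). It lost that call without ANT replicates 1 or 3 (0.0566 and 0.057) and without SAS replicates 2, 3 or 6 (0.0589, 0.0598 and 0.0571), and ran from 9.31e-06 to 0.15 over the 18 alternatives.

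The immunoproteasome supplies peptides for class I presentation. Of 12 tested genes of that pathway, 5 were called higher in ANT (17.7% of all genes), 2 higher in SAS (19.8% of all genes) and 5 in neither direction. Tap1, across the shared promoter from Psmb9, was at 467 ± 23.6 CPM in the ANT libraries and 311 ± 12.2 CPM in the SAS libraries (log2 fold change −0.59, SE 0.09, edgeR adjusted p 0.000534). For Tap2, the other transporter chain, the log2 fold change was −0.47 (adjusted p 0.00664), B2m, the light chain, of −0.81 (adjusted p 0.003), the heavy chain gene H2-K1 of −0.52 (adjusted p 0.00259), and Tapbpl, a peptide editor, of −0.66 (adjusted p 0.00117). Nlrc5, the transactivator of class I genes, was not called (579 ± 34.9 and 486 ± 36.4 CPM, log2 fold change −0.25, edgeR adjusted p 0.0705). It was called without SAS replicate 2 (adjusted p 0.0464, with 0.0111 to 0.263 over the 18 alternatives). Tapbp was not called either (log2 fold change −0.21, adjusted p 0.373). The 2 higher in SAS were the chaperones Calr and Canx, picked out after their values were seen, with log2 fold changes of 0.41 and 0.55.

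Of 14 genes of interferon signalling, 6 were called higher in ANT and 4 in SAS, beside 17.7% and 19.8% of all genes. Irf1, the factor that drives the immune subunits in response to interferon, was at 585, 553, 527 and 503 CPM in the ANT libraries and 279, 245, 300.5 and 245 CPM in the SAS libraries (log2 fold change −1.02, SE 0.11, edgeR adjusted p 4.16e-05). Irf8 and Jak2 rose in SAS, with log2 fold changes of 3.47 and 1.31 (adjusted p 9.21e-07 and 8.69e-06). Of 22 interferon-induced genes, 17 were called higher in ANT and 0 in SAS (0 at an unadjusted p under 0.05, and 0 with DESeq2 or limma-voom), with a median log2 fold change of −1.44. Among them Gbp7, Igtp, Oasl2 and Ifit2 ran from −1.69 to −2.19. The decreases of Psmb9 and Psmb10 were thus smaller in size than that median, and Psmb8, Psme1 and Psme2 were not called. The difference between them was not tested.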

How the data were processed

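RNA was measured in 8 libraries, 4 per clone. The deposited table holds whole-number counts of reads for each gene and library, not normalized. The submitters' processing notes name STAR, featureCounts and the build mm10. Not given in the sources used here are versions, annotation release, strand setting and the handling of reads that map to several places.

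IDs without version suffix were matched to GENCODE M21 (GRCm38, mm10): 38872 of 39056 matched. The test was edgeR's (4.0.16, R 4.3.3) across the 12619 genes passing its default filter, with TMM scaling, a robust quasi-likelihood fit without covariates and Benjamini-Hochberg adjustment over all genes. Standard errors were computed as the size of the log2 fold change over the square root of F. CPM are counts per 1e6 of the scaled library size. Levels between genes were divided by the longest APPRIS principal transcript. Alternatives were other scalings and filters, DESeq2 1.42.0, limma-voom (limma 3.58.1), left-out libraries and a replicate block. The script was tested on simulated data first. It called 18% of simulated 1.5-fold changes, 60% of 2-fold and 94% of 4-fold changes, and 5% of its calls were false. The simulation changed far fewer genes than were called in these data, so these shares need not hold here. A member that was not called may still differ. Depths of 27600959 to 31810799 counts per library, with 4 libraries per clone, set the precision.

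Members and lists were chosen with earlier results of these data known. Named in full are the immune and constitutive catalytic subunits, the activators, the inhibitor, Psma8, Psmb11, other called members and the 3 least abundant others, and in each pathway list up to 4 called genes with the smallest p and 10 fixed genes. A gene that this rule names is not reported here. Copies were sought by aligning each member's transcript to the annotated transcripts (at least 90% identity over 500 bases). Of 50 members, 14 had a copy, and 6 had one averaging 10 or more counts. Protein alignments were not made.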

Additional observations from a re-analysis of the deposited data

Results flagged for a closer look

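Of 100 groups of 4 libraries checked, 6 held a library whose gap to the next, as a share of the group's range, exceeded Dixon's critical value, where chance flags about 1 in 20. Psma6 was at 61.2 CPM in ANT replicate 5 and at 78.9 CPM or more in the other ANT libraries. Psmf1 was at 33.4 CPM in the SAS libraries replicate 2 and at 36.5 CPM or more in the others. Psmb11 had its only ANT counts in replicate 4 (0.0721 CPM) and its only SAS count in replicate 3 (0.0345 CPM). Nlrc5 reached 540.5 CPM in the SAS libraries replicate 2, with 473 CPM the next highest SAS level. Jak2 was at 413 CPM in the SAS libraries replicate 2, with 482 CPM the next lowest.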

How the results depend on the processing

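Psmb9, Psmb10, Psme2b and Psme3 kept their call and direction in all 18 alternatives. The number of members higher in SAS was 6 in the main analysis (19.8% of all genes) and 13 with scaling by library size only (24.3%). With no low-count filter it was 3 (11.3%), and without ANT replicates 1 and 3 it was 12 (19.3%). Over the fits that left out 1 library it was 2 to 8 (17.3% to 19.1%). The same counts hold for members other than the immune subunits. Of those, 2 were higher in ANT without ANT replicates 4 and 5 (21.2% of all genes). Members higher in SAS without overlap numbered 6 to 15 (15 without SAS replicate 2) when 1 library was left out. Of all genes, 21.6% to 22.7% were so (22.7% without SAS replicate 2). Scaling by library size raised the median log2 fold change of all genes from −0.0032 to 0.0943. Uncalled members turned direction: with 1 library left out, Psme1 ran from −0.0515 (without ANT replicate 5) to 0.1022, Psme2 from −0.1409 to 0.0244 (without SAS replicate 2), Psmb6 from −0.0593 (without ANT replicate 5) to 0.1289 and Psmb7 from −0.0372 (without ANT replicate 5) to 0.1967, and without SAS replicate 1 the latter pair were at −0.0396 and −0.0183. Without ANT replicates 4 and 5, Psme1 was at −0.117, Psmb6 at −0.1501, Psmb7 at −0.1594 and Tapbp at 0.0692. Psme2 was at 0.091 without ANT replicates 1 and 3 and at 0.0449 with library size only, and Psmg4 at 0.0132 with library size only. The cause was not tested.

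With a replicate block, in which only the numbers 1 and 3 occur in both clones, 12 members were called in place of 9 (45.9% of all genes in place of 37.4%), 8 of them shared, with Psmd2 lost (adjusted p 0.0527) and Psmb5, Psmd12, Psmd3 and Psme4 gained. Psmb6 then turned to −0.052, Psmb7 to −0.0547 and Tapbp to 0.1336. The labels tie the shared numbers to nothing, and deviations of same-numbered libraries correlated at 0.29 (replicate 1) and −0.12 (replicate 3). Under the block, 24.9% of all genes were called higher in SAS and 21.1% higher in ANT. Pathway list calls in SAS were then 3 for the proteasome restoring response, 7 for other proteasome factors and 4 for ubiquitin supply. For ubiquitin supply, 3 were called higher in ANT. For the restoring response, calls in SAS were also 1 with library size only and 0 to 1 with 1 library left out. Of all genes, 24.3% and 17.3% to 19.1% were called higher in SAS there. With DESeq2, 1 other proteasome factor was called in ANT (15.9% of all genes). Without ANT replicates 4 and 5, calls in SAS were 3 for the restoring response and 6 for other proteasome factors (23.2% of all genes). Without ANT replicates 1 and 3 they were 4 for other proteasome factors (19.3%). In ANT, 1 and 2 other proteasome factors were called in these fits (21.2% and 16.8% of all genes). For class I presentation, 1 was called in SAS in either of these fits, and 1 to 2 with 1 library left out. For ubiquitin supply, calls in ANT were 2 with upper-quartile scaling, no low-count filter, DESeq2 or limma-voom, 4 without ANT replicates 4 and 5, and 0 to 2 with 1 library left out. Of all genes, 18.0%, 9.42%, 15.9%, 17.4%, 21.2% and 13.5% to 17.4% were called higher in ANT, in the same order. The cause was not tested.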
